A study of Homo sapiens with 9 samples.

Results

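The negative regulators of JAK2 signalling were followed through a pooled knockout screen in HEL cells by the abundance of the guide RNAs that target them. The group is a list of gene names and holds the SOCS family (SOCS1 to SOCS7 and CISH), the adaptor SH2B3, the phosphatases PTPN1, PTPN2, PTPN6 and PTPRC, the ubiquitin ligases CBL and CBLB, and the PIAS proteins. Guides were matched for 18 of the 19 listed genes, with 4 guides each, which gave 72 of the 77441 guides in the table and 18 of its 19114 genes. PIAS1 was not analysed here. HEL cells are an established human line from an erythroid leukemia whose JAK2 is mutated, and the cells of every library carried Cas9 and the pooled guides. One library was taken at day 0, before treatment, 4 at day 12 under DMSO, the solvent control, and 4 at day 12 under 200 nM ruxolitinib (RUX), an inhibitor of the JAK1 and JAK2 kinases. The sources used here do not say whether the replicates of a condition were separate transductions or splits of 1 transduced culture, so p-values measure the spread between these libraries only. The single day 0 library was the starting point of both conditions.

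Cytokine receptors of blood cells signal through JAK2, which phosphorylates the receptor and STAT transcription factors, and mutated JAK2 does so without a ligand. Several layers of inhibitors limit this signal. SOCS proteins are induced by STATs, bind phosphorylated receptors or kinases and recruit a ubiquitin ligase, SH2B3 (LNK) binds JAK2 and receptors directly, tyrosine phosphatases remove the phosphate groups, CBL proteins mark activated receptors and kinases for degradation, and PIAS proteins bind STATs and attach SUMO. Loss of SH2B3 or of CBL function is known from myeloid neoplasms. In a growth screen, guides against a gene that restrains growth would become more frequent over time and guides against a gene that cells need would become rarer.

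The table names guides by number (such as sg_22569), and the positions at which they cut are not given in the sources used here. The values below are reads per guide scaled so that the non-targeting guides have the same median ratio in each library. The score of a guide is the natural log of its value over its day 0 value, with 5 added to both, and the score of a gene is the mean over its guides. Percentages of the day 0 level are mean scores taken back from the log scale, so they include the added 5. Member guides had between 28 and 776 reads at day 0, with a median of 188.5 against 235 for all guides. One of them, the PTPRC guide sg_15468 with 28 reads, fell under the minimum day 0 value of 30, so 71 member guides were scored. Libraries held 19631338 to 26611323 reads on guides. The scores of the non-targeting guides had an SD of 0.46 in DMSO replicate 3 and of 0.26 to 0.30 in the other day 12 libraries. Some results, though not all, are therefore also given without DMSO replicate 3.

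No member gene passed a test in either condition, and single member guides were spread from 29.6% (sg_24431 of SOCS6, DMSO) to 262% (sg_27965 of PIAS3, RUX) of their day 0 level. The lowest and highest of the 18 gene scores were −0.31 (SOCS3) and 0.16 (CBL) with RUX, and −0.36 (PTPRC) and 0.18 (PIAS4) with DMSO. None was below −0.5, the level that the study used for a dependency, where 4.63% of all 19112 scored genes lay under RUX and 4.32% under DMSO. None was above 0.5, where the shares were 0.0471% under RUX and 0.068% under DMSO, so with 18 genes a count of 0 was close to the background in either direction. In limma, adjusted over all genes, 0 of 18 members differed from day 0 under RUX (1.58% of all genes did) and 0 of 18 under DMSO (1.16%). At an unadjusted p under 0.05, there were also 0 members under RUX and 0 under DMSO, against 10.1% and 9.41% of all genes. On the whole reads, edgeR called 0 members at the adjusted threshold under RUX (0.947% of all genes) and 0 under DMSO (0.539%), and DESeq2 called 0 (1.23%) and 0 (0.874%). At an unadjusted p under 0.05, edgeR had 0 members under RUX (8.38%) and 1 under DMSO (7.38%), and DESeq2 had 1 in each (9.14% and 8.17%).

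The median score of the members was 0.01 under RUX, with 10 of 18 above 0, and −0.04 under DMSO, with 6 of 18 above 0. Over all genes the medians were −0.09 and −0.08. The sign of the members' medians turned with the processing, with values of −0.13 to 0.09 under RUX and −0.10 to 0.05 under DMSO, and without RUX replicate 3 the RUX median was −0.04. The intervals against day 0 were wide because only 1 day 0 library exists. Under RUX the 95% confidence interval reached below −0.5 for 7 members and above 0.5 for 2, and under DMSO for 5 and 1.

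The comparison of RUX with DMSO asks whether loss of a brake on JAK2 changes growth when the kinase is inhibited. The day 0 value of a guide cancels in the difference, though it still decides which guides are scored, and the intervals were narrower than those against day 0. With a day 0 minimum of 100 in place of 30, the difference of PTPRC was 0 in place of 0.18 and that of SOCS5 was −0.08 in place of 0.12. No member passed limma, of 0.0419% (8 genes) that passed among all genes, and the lowest adjusted p of a member was 0.46. Differences ran from −0.21 for SH2B3 to 0.22 for CISH, with a median of 0.05 over the 18 members and of −0.01 over all genes. The median size of the difference was 0.10 for members and 0.09 for all genes. The 95% confidence intervals of the 18 differences lay between −0.41 and 0.46, so none reached a change of 0.5 in either direction. They hold the spread between libraries but not the spread between the guides of a gene, so they do not bound the effect of its loss. In 0 of 18 members did all RUX libraries lie below all DMSO libraries (2.99% of all genes) or above them (1.96%). At an unadjusted p under 0.05, limma had 1 member lower under RUX (6.31% of all genes), which was SH2B3, and 0 higher (3.14%). At that level edgeR had 3 members and DESeq2 had 3, against 10.8% and 11.6% of all genes counted in either direction. Those of edgeR were SOCS1, PIAS4 and SH2B3 (unadjusted p = 0.02, 0.028 and 0.043), all lower under RUX. The median difference over all genes was −0.04 in edgeR. Neither edgeR nor DESeq2 called a member after adjustment (0.0262% and 0.277% of all genes), with a lowest adjusted p of 0.38 in edgeR and 0.27 in DESeq2. A two-sided exact permutation test was made for each of the 18 members, and its smallest p was 0.11, where the design of 4 against 4 libraries allows 0.029.

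Single guides also gave no call. Of 71 member guides, limma called 0 under RUX against day 0 (0.0981% of all 75434 scored guides), 0 under DMSO (0.00795%) and 0 between conditions (0.00928%). Unadjusted p was under 0.05 in 3, 3 and 5 of them, against 5.61%, 5.34% and 8.86% of all guides. edgeR on whole reads per guide called 0 in each comparison (0.349%, 0.237% and 0.00795% of all guides). At the unadjusted level it had 2, 4 and 5 member guides, against 5.74%, 5.46% and 8.71%. Scores below −0.5 were seen for 6 member guides under RUX and 7 under DMSO (11.8% of all guides in each), and scores above 0.5 for 3 and 2 (3.4% and 3.74%). The range that held 95% of 990 non-targeting guides was −0.41 to 0.45 under RUX. Member guides lay below it in 9 cases and above it in 6, against 17% and 4.67% of all guides. Under DMSO that range was −0.52 to 0.45, with 7 member guides below and 2 above (10.9% and 4.9%). For the difference between conditions it was −0.35 to 0.44, with 6 member guides below and 5 above (8.56% and 4.17%). The members' counts below these ranges were thus at or under the share of all guides, and those above were over that share under RUX and between conditions, by a few guides and without a test.

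The SOCS family held 8 of the members, with medians of 0.01 under RUX and −0.09 under DMSO. SOCS3, which inhibits JAK kinases bound to their receptor, was the lowest member under RUX. The gene lies at 78356778 to 78360077 on chromosome 17 (GRCh38, GENCODE 44, as for all positions here). Its score was −0.35, −0.41, −0.27 and −0.20 in RUX replicates 1 to 4 and −0.17, −0.31, −0.33 and −0.35 in DMSO replicates 1 to 4. All 8 libraries were thus below day 0, and the conditions overlapped. The means of −0.31 ± 0.10 (SD, n = 4) and −0.29 ± 0.08 left 73.6% and 74.9% of the day 0 level, and neither passed limma (adjusted p = 0.51 and 0.58). They differed by −0.02 (95% confidence interval −0.22 to 0.18; adjusted p = 0.98 from limma). The median score of the 20 genes next to SOCS3 was −0.15 under RUX and −0.13 under DMSO, and with it subtracted SOCS3 stood at −0.16 and −0.15.

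The guides of SOCS3 were not alike. The guide sg_23605 had a value of 263 at day 0, then 155, 131, 236 and 140 under RUX and 171, 119, 80.6 and 145 under DMSO. Every day 12 library was below day 0 for this guide. The guide sg_23608 went from 332 at day 0 to 397, 241, 208 and 318 under RUX and 509, 264, 484 and 468 under DMSO. It was above day 0 in 3 of 4 DMSO libraries and in 1 of 4 RUX libraries, with a difference of −0.39 between conditions (adjusted p = 0.52 from limma).

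SOCS1, the other SOCS protein that blocks JAK kinase activity directly, lies on chromosome 16 from 11254417 to 11256204. Its gene score was −0.18, −0.23, −0.52 and 0.03 in RUX replicates 1 to 4 and −0.15, 0.09, −0.14 and −0.12 in DMSO replicates 1 to 4. The conditions overlapped, and the difference of −0.15 (95% confidence interval −0.41 to 0.12; adjusted p = 0.77 from limma) was −0.05 without RUX replicate 3 and −0.29 in edgeR (adjusted p = 0.38).

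Among member guides, the SOCS1 guide sg_22569 had the lowest p between conditions. Its value of 306 at day 0 became 218, 190, 197 and 273 under RUX and 451, 389, 399 and 366 under DMSO. All RUX libraries were below day 0 and all DMSO libraries above it, so the conditions did not overlap. This was the only member guide of 71 with all RUX libraries below all DMSO libraries, against 2.65% of all guides. The difference was −0.60 (95% confidence interval −0.93 to −0.27), with an adjusted p of 0.29 in limma and 0.28 in edgeR and an exact permutation p of 0.029, the smallest that the design allows. The other guides of SOCS1 were not uniform in this. The guide sg_22571 was also lower under RUX, with 85.7, 87.4, 111 and 245 against 166, 169, 258 and 134 under DMSO and 269 at day 0, but the conditions overlapped. Its score of −0.79 under RUX was the lowest of any member guide there (adjusted p = 0.87 from limma). The guides sg_22570 and sg_22572 had differences of 0.26 and 0.13, in the other direction.

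CISH, a STAT5 target that binds phosphorylated receptors, had the largest difference in favour of RUX. The gene spans 50606489 to 50611774 of chromosome 3. Its score was −0.03, −0.02, 0.17 and −0.05 in RUX replicates 1 to 4 and −0.25, 0.02, −0.42 and −0.15 in DMSO replicates 1 to 4. RUX libraries were thus at or near day 0 and DMSO libraries below it apart from replicate 2, which overlapped with RUX. The means of 0.02 ± 0.10 and −0.20 ± 0.19 (SD, n = 4) differed by 0.22 (95% confidence interval −0.02 to 0.45; adjusted p = 0.56 from limma; exact permutation p = 0.11). Without DMSO replicate 3 the difference was 0.14, and without DMSO replicate 2 it was 0.29. Of its 4 guides, 1 had a difference above that of the gene. The guide sg_3287 had 118 at day 0, 132, 112, 222 and 196 under RUX, and 63.8, 60.2, 65.8 and 71.1 under DMSO. All RUX libraries lay above all DMSO libraries, a difference of 0.85 (95% confidence interval 0.34 to 1.37; adjusted p = 0.32 from limma and 0.28 from edgeR). The guides sg_3285, sg_3286 and sg_3288 had differences of −0.01, −0.11 and 0.14.

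SOCS6, which binds receptor tyrosine kinases such as KIT, had a score close to 0 in both conditions, 0.07 ± 0.23 under RUX and 0.01 ± 0.13 under DMSO (SD, n = 4), but its guides pointed in opposite directions. The guide sg_24432 had a value of 130 at day 0, then 338, 238, 295 and 378 under RUX and 281, 283, 228 and 252 under DMSO. It was above day 0 in all 8 libraries. Its score of 0.84 under RUX was above that of 99.6% of all guides (adjusted p = 0.44 from limma, the lowest of any member guide against day 0), and its score under DMSO was 0.67. The guide sg_24431 had 91.7 at day 0, 99.7, 18.7, 47.7 and 37.8 under RUX and 43.2, 12.6, 32.0 and 16.5 under DMSO. It was below day 0 in 7 of 8 libraries, and its score of −1.22 ± 0.47 under DMSO was the lowest of any member guide (adjusted p = 0.90 from limma). The other SOCS6 guides, sg_24429 and sg_24430, scored 0.15 and −0.04 under RUX and 0.31 and 0.28 under DMSO. Since 1 day 0 count underlies both scores of a guide, a guide high or low in both conditions was not measured against independent starting counts. The SD over the 4 guides was 0.63 under RUX and 0.84 under DMSO, where the median over genes with 4 guides was 0.28 and 0.29 and the 95th percentile 0.61 and 0.62.

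The remaining SOCS genes had scores near 0 or slightly below. SOCS4, which acts mainly on the EGF receptor, had a score of −0.23 in each condition (SD 0.16 under RUX and 0.19 under DMSO, n = 4) and a difference that rounded to 0 (95% confidence interval −0.26 to 0.26). It lies on chromosome 14 (55027230 to 55049489). Single libraries of SOCS4 stood at −0.30, −0.19, −0.03 and −0.40 in RUX replicates 1 to 4 and at −0.07, −0.38, −0.40 and −0.06 in DMSO replicates 1 to 4, all below day 0 and overlapping. SOCS2, which restrains growth hormone signalling, had 0.01 under RUX and −0.11 under DMSO, SOCS5 had 0.08 and −0.04, and SOCS7 had 0.06 and 0.01. Their differences of 0.12, 0.12 and 0.05 had adjusted p of 0.80 to 0.92 in limma. That of SOCS2 was 0.02 without DMSO replicate 3. Within SOCS5 the guide sg_25505 had 76.6 at day 0, 154, 95.1, 111 and 209 under RUX and 108, 177, 90.9 and 82.4 under DMSO. Its score under RUX was 0.55, and that of sg_25507, from a day 0 value of 250, was −0.59.

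SH2B3, the adaptor that binds JAK2, had the most negative difference among the members. The position is chromosome 12, 111405923 to 111451623. Its score was 0.02, −0.37, −0.27 and −0.32 in RUX replicates 1 to 4 and −0.06, −0.07, 0.13 and −0.10 in DMSO replicates 1 to 4. The other 3 RUX libraries were below all DMSO libraries, while RUX replicate 1 lay among them. The means of −0.24 ± 0.18 and −0.03 ± 0.10 (SD, n = 4) left 78.9% and 97.4% of the day 0 level, and their difference of −0.21 had a 95% confidence interval of −0.40 to −0.03. It did not pass over all genes (adjusted p = 0.46 from limma, 0.45 from edgeR and 0.39 from DESeq2; exact permutation p = 0.11). By its difference SH2B3 ranked 1298 from the lowest of 19112 genes. The interval of SH2B3 was the only one of the 18 that did not include 0.

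The 4 guides of SH2B3 had differences of one sign, −0.02, −0.18, −0.26 and −0.37 for sg_26753, sg_26754, sg_26755 and sg_26756. The guide sg_26755 had 246 at day 0, 308, 142, 151 and 124 under RUX and 229, 192, 243 and 226 under DMSO. The guide sg_26756 had 295 at day 0, 385, 191, 176 and 203 under RUX and 225, 416, 567 and 225 under DMSO. For each of these guides 3 RUX libraries were below all DMSO libraries and RUX replicate 1 was above day 0. Without RUX replicate 1 the difference of the gene was −0.30 (adjusted p = 0.36), without DMSO replicate 3 it was −0.16 (adjusted p = 0.76), and with the median of neighbouring genes subtracted it was −0.13 (adjusted p = 0.75), all in limma. The 20 genes next to SH2B3 had medians of −0.14 (RUX) and −0.06 (DMSO).

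The phosphatases had medians of −0.15 under RUX and −0.16 under DMSO. PTPRC (CD45), a receptor phosphatase of blood cells that acts on SRC family and JAK kinases, was the lowest member under DMSO. On chromosome 1 it covers 198638457 to 198757476. Its score was −0.18, −0.05, −0.53 and 0.04 in RUX replicates 1 to 4 and −0.34, −0.09, −0.71 and −0.28 in DMSO replicates 1 to 4. Replicate 3 was the lowest library in each condition, and the conditions overlapped. The means were −0.18 ± 0.25 and −0.36 ± 0.26 (SD, n = 4), and the DMSO score had an adjusted p of 0.67 in limma and was −0.24 without DMSO replicate 3. Their difference of 0.18 (95% confidence interval −0.11 to 0.46; adjusted p = 0.73 from limma) was 0.06 without DMSO replicate 3, 0.29 without RUX replicate 3 and 0.02 in edgeR and DESeq2. Over all alternatives the difference ran from 0, with a day 0 minimum of 100, to 0.50, with the median over guides in each library. Without RUX replicate 3 the RUX score was −0.07.

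The PTPRC score depended on which of its guides were used. The guide sg_15466 went from 166 at day 0 to 66.1, 84.0, 73.0 and 151 under RUX and 64.8, 98.0, 32.0 and 62.5 under DMSO, below day 0 in all 8 libraries (scores −0.60 and −0.97). The guide sg_15465 went from 70.6 to 138, 128, 111 and 99.8 under RUX, above day 0 in all 4 libraries, and to 76.6, 74.6, 40.7 and 87.6 under DMSO. For sg_15465 all RUX libraries lay above all DMSO libraries (difference 0.53, adjusted p = 0.58 from limma), and the difference was 0.38 without DMSO replicate 3. The third scored guide, sg_15467, had a difference of the other sign, −0.37 (adjusted p = 0.62 from limma), with scores of −0.43 under RUX and −0.06 under DMSO. In RUX replicate 3 it scored −1.23. When the guide farthest from the rest was dropped, the PTPRC score was 0.03 under RUX and −0.05 under DMSO, and with guides of a day 0 value of at least 100 it was −0.52 and −0.51. The left-out guide sg_15468, with 28 reads at day 0, had 16, 43, 14 and 13 reads under RUX and 14, 41, 16 and 15 under DMSO.

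PTPN2, a phosphatase of JAK1 and STAT proteins, had a score of −0.18 ± 0.17 under RUX and −0.28 ± 0.14 under DMSO (SD, n = 4; adjusted p = 0.84 and 0.72 from limma). Its RUX libraries spanned −0.34 to 0.06 and its DMSO libraries −0.40 to −0.11, so that 7 of 8 were below day 0. Its guide sg_15417 was below day 0 in all 8 libraries, from 152 at day 0 to 112, 107, 59.0 and 86.1 under RUX and 63.8, 80.9, 89.2 and 122 under DMSO. PTPN1 (PTP1B), which dephosphorylates JAK2, scored 0.01 ± 0.15 (RUX) and −0.04 ± 0.17 (DMSO) and differed by 0.05 (95% confidence interval −0.19 to 0.29). PTPN6 (SHP-1), which is recruited to the erythropoietin receptor and ends its signal, had −0.13 ± 0.08 and −0.02 ± 0.13. Its difference of −0.11 (95% confidence interval −0.36 to 0.15) was −0.05 without DMSO replicate 3. Neither PTPN1 nor PTPN6 passed limma, with adjusted p of 0.94 and 0.84 for the differences.

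CBL, a ubiquitin ligase for activated tyrosine kinases, had the highest score under RUX. The gene is on chromosome 11 (119206298 to 119313926). The score was 0.34, 0.23, −0.11 and 0.20 in RUX replicates 1 to 4 and 0.22, −0.46, 0.24 and 0.24 in DMSO replicates 1 to 4. DMSO replicate 2 stood alone below the other DMSO libraries, which lay within the RUX range. The means were 0.16 ± 0.19 under RUX and 0.06 ± 0.35 under DMSO (SD, n = 4; adjusted p = 0.90 and 0.97 from limma), or 0.23 under DMSO without replicate 2. The difference of 0.11 (95% confidence interval −0.21 to 0.42) was then −0.07. CBL guides were sparse, with 69 to 96 reads at day 0, and in DMSO replicate 2 the guides sg_2427 and sg_2428 had values of 28.8 and 22.5 against 69.5 and 79.6 at day 0. Its relative CBLB had −0.06 ± 0.06 under RUX and 0.00 ± 0.08 under DMSO, the narrowest spread between libraries under RUX and a difference of −0.07 (95% confidence interval −0.24 to 0.11). One of its guides, sg_2430, lay higher in all RUX libraries (455, 487, 506 and 518) than in all DMSO libraries (289, 396, 447 and 368), with 496 at day 0 (difference 0.28, adjusted p = 0.59 from limma). Together with sg_3287 and sg_15465 it made up the 3 member guides of 71 with all RUX libraries above all DMSO libraries, against 1.99% of all guides.

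Of the PIAS proteins, PIAS4 had the highest score under DMSO. It is on chromosome 19 (4007736 to 4039386). The score was 0.01, 0.09, 0.19 and 0.12 in RUX replicates 1 to 4 and 0.17, 0.33, −0.07 and 0.31 in DMSO replicates 1 to 4. All libraries but DMSO replicate 3 were above day 0, and the conditions overlapped. The means of 0.10 ± 0.07 and 0.18 ± 0.18 (SD, n = 4) left 111% and 120% of the day 0 level (adjusted p = 0.87 and 0.72 from limma). The difference of −0.08 (95% confidence interval −0.24 to 0.08; adjusted p = 0.80) was −0.16 without DMSO replicate 3. It was −0.03 without DMSO replicate 2. In edgeR it was −0.18, with an unadjusted p of 0.028 and an adjusted p of 0.41. The guide sg_39088, the third highest member guide under DMSO, had 493 at day 0, 470, 626, 713 and 559 under RUX and 735, 534, 815 and 892 under DMSO. It was above day 0 in 7 of 8 libraries, and its difference of −0.22 had an adjusted p of 0.67 in limma. The guide sg_39087 had a difference of −0.36 (adjusted p = 0.43 from limma). The guides sg_39089 and sg_39090 had differences of the other sign, 0.19 and 0.07.

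PIAS3, which binds STAT3, had the widest spread between guides under RUX, with an SD of 0.69 over 4 guides. It lies on chromosome 1 from 145848522 to 145859836. The gene score was 0.14, 0.30, −0.12 and 0.22 in RUX replicates 1 to 4 and 0.13, 0.06, −0.28 and −0.11 in DMSO replicates 1 to 4. The conditions overlapped, and the difference of 0.19 (95% confidence interval −0.05 to 0.42; adjusted p = 0.64 from limma) was 0.11 without DMSO replicate 3. The guide sg_27965 had 47 reads at day 0. Its values were 47.4 at day 0, 164, 132, 84.3 and 166 under RUX and 77.6, 93.5, 85.7 and 148 under DMSO, above day 0 in all 8 libraries. Its score of 0.96 under RUX was the highest of any member guide and above that of 99.8% of all guides (adjusted p = 0.78 from limma). The guide sg_27966 was below day 0 in all 8 libraries, from 235 to 68.9, 178, 128 and 109 under RUX and 156, 147, 71.9 and 96.3 under DMSO. When the guide farthest from the rest was dropped, the PIAS3 score under RUX was −0.14 in place of 0.14. PIAS2 scored 0.05 ± 0.10 (RUX) and 0.01 ± 0.13 (DMSO; SD, n = 4) and differed by 0.04 (95% confidence interval −0.14 to 0.21).

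Guides of 1 gene on both sides of day 0 were common. In 14 of the 18 members under RUX and 16 under DMSO, at least 1 guide scored above 0 and at least 1 below. The median SD between guides, over 17 members with 4 scored guides and PTPRC with 3, was 0.24 under RUX and 0.27 under DMSO, and the medians over all genes with 4 guides were 0.28 and 0.29. The median score of the 20 neighbouring genes ran from −0.20 (SOCS7) to −0.02 (SOCS6) under RUX.

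Genes that carry the JAK2 signal forward give a scale for these values. Of 41 receptors, kinases, STATs, adaptors and targets, 4 were lower than day 0 under RUX and 3 under DMSO in limma, and none was higher, with medians of −0.21 and −0.11. Among them were JAK2 at −1.23 ± 0.22 under RUX and −1.10 ± 0.08 under DMSO (SD, n = 4; adjusted p = 2.4e-04 and 0.0015 from limma) and the target MYC at −1.53 and −1.66 (adjusted p = 0.0020 and 0.0011). BCL2L1, a survival gene downstream of STAT5, passed under RUX at −1.28 (adjusted p = 0.013 from limma) and stood at −1.07 under DMSO (adjusted p = 0.068). STAT5B at −0.67 and the adaptor GRB2 at −0.73 under RUX did not pass (adjusted p = 0.12 and 0.20 from limma). None of the 41 passed between RUX and DMSO. A test of the members against this list was not made.

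Of 19 genes that SOCS, CBL and PIAS proteins work with, 1 passed under RUX and 0 under DMSO in limma. It was TCEB2 (elongin B), the adaptor through which the SOCS box joins a cullin, at −1.02 ± 0.13 under RUX (adjusted p = 0.031) and −0.74 ± 0.32 under DMSO (SD, n = 4; adjusted p = 0.24). TCEB2 also serves the VHL ligase and transcription elongation. RBX1, the RING subunit of cullin ligases, stood at −0.61 and −0.59, SUMO2 at −0.69 and −0.42, and UBA2, a subunit of the SUMO activating enzyme, at −0.36 and −0.56, none of them passing. Of 33 other PTPN and PTPR genes, 0 passed in any comparison, with medians of −0.11 under RUX and −0.03 under DMSO. The lowest of them under RUX was PTPN11 (SHP2), a phosphatase that promotes RAS signalling and is also counted among the 41 genes above, at −0.62 ± 0.29 (SD, n = 4; adjusted p = 0.36 from limma).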

How the data were processed

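Guide DNA was sequenced from 9 HEL libraries. Reads per guide were counted by the authors with MAGeCK (version 0.5.9.3), and the deposited signal per guide is the read count times 1 factor per library. Dividing by that factor gave whole reads, to within 4.5e-13. The authors' own scores, corrected by control guides and for copy number, were not recomputed. Values were rescaled so that the non-targeting guides had the same median ratio in each library, with the day 0 values left as deposited. The ratio was taken to the geometric mean of each guide over the 9 libraries. Of the 1000 non-targeting guides, those with reads in every library were used. Guides with a day 0 value under 30 were dropped, then genes with fewer than 2 guides left, and 19112 genes were scored. Scores of all 9 libraries entered limma 3.58.1 (R 4.3.3) with a mean for each condition and a variance trend on abundance. The lone day 0 library was taken to vary as the replicated conditions do. Benjamini-Hochberg adjustment covered all genes or all guides (threshold 0.05), and intervals used limma's moderated errors. Single members were also compared by a two-sided exact permutation test with all 70 assignments of the condition labels. Alternatives included edgeR 4.0.16 and DESeq2 1.42.0 on the recovered reads. Replicates differed by more than sampling noise, with a chi-square per guide of 16.7 to 33.8.

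All members are named. Values in every library follow a rule for the 4 largest differences and the 3 lowest and 3 highest mean scores, and for the 3 lowest and 3 highest guides of each comparison. Those of the SOCS1 gene and of guides of SH2B3, PTPN2, CBL and CBLB were added after their values were seen. Other guides outside the rule are named with scores, differences or single values only, apart from the unscored PTPRC guide sg_15468, whose reads are given. The members and lists were chosen with earlier results of these data known. Some listed genes are not reported here by name.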

Additional observations from a re-analysis of the deposited data

Results flagged for a closer look

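Among 66 groups of 4 libraries (gene scores and scores of named guides of the members, and their median), 6 held a library far from the other 3, where chance flags about 1 in 20, or 3.3. For CBL, DMSO replicate 2 stood at −0.46, with the others at 0.22 to 0.24. The SOCS3 guide sg_23608 also had DMSO replicate 2 apart, at −0.22 against 0.34 to 0.42, and so did SOCS1, at 0.09 against −0.15 to −0.12. DMSO replicate 3 stood apart for SH2B3, at 0.13 against −0.10 to −0.06, and for PIAS2, at −0.18 against 0.06 to 0.09. For CISH, RUX replicate 3 stood at 0.17, with the others at −0.05 to −0.02.

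The SOCS1 guide sg_22569 was below day 0 in all 4 RUX libraries and above it in all 4 DMSO libraries. The difference of −0.60 did not pass limma over all guides (adjusted p = 0.29, and 0.19 to 0.52 over its alternatives).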

How the results depend on the processing

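No member gene passed in any alternative fit of the genes and no scored member guide in any of the guides, and the lowest adjusted p was 0.27 for a gene and 0.19 for a named guide. Of 1149 alternative values of single genes, 87 had the other sign, as had 11 of 716 values of single guides, all without passing. In the alternative with a median over guides, the median of the log values was taken within each library before day 0 was subtracted. It is not the median of the guide scores and can set different guides against each other. The sign of the members' median was not stable. Under RUX (0.01) it was 0.08 scaled to the library total, 0.09 scaled over all guides, 0.09 as deposited, −0.13 with a day 0 value of at least 100, −0.09 as a median over guides, −0.04 without the guide farthest from the rest, 0.07 with neighbouring genes subtracted, and −0.01 in both edgeR and DESeq2. Leaving out 1 library gave −0.04 (RUX replicate 3) to 0.03 (RUX replicate 2), and −0.02 without RUX replicate 1 or 4. Under DMSO (−0.04) it was 0.02 scaled over all guides, 0.03 as deposited, −0.10 with the day 0 minimum of 100, −0.08 as a median over guides, 0.05 with neighbours subtracted, and −0.01 in edgeR and DESeq2, with −0.06 to −0.02 when 1 library was left out. The median difference (0.05) was 0.09 scaled to the total and 0.09 without the farthest guide. It was −0.02 with the minimum of 100, as a median over guides, and in edgeR and DESeq2. Leaving out 1 library gave −0.01 (DMSO replicate 2) to 0.06, with 0.01 and 0.02 without RUX replicates 1 and 3.

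With the day 0 minimum of 100, 1 member gene was below −0.5 in each condition, PTPRC at −0.52 and −0.51 (5.63% and 4.94% of all genes). With the median over guides in each library, 1 was below −0.5 under DMSO, PTPRC at −0.80 (4.7%). The scores of its guides under DMSO were −0.04, −0.97 and −0.06, so −0.80 is not a middle guide score. Member guides above 0.5 under RUX numbered 6 scaled to the total, over all guides or as deposited (4.98%, 5.32% and 5.33% of all guides) and 1 with the minimum of 100 (1.81%), which also left 1 under DMSO (2.48%). Member guides below −0.5 under DMSO numbered 4 scaled over all guides, as deposited or with a pseudocount of 20 (9.22%, 9.18% and 9.15% of all guides). Without the farthest guide, 2 member genes had conditions that did not overlap, where 4.71% of all genes did. They were CISH, higher under RUX by 0.29 (adjusted p = 0.45 from limma), and PIAS4, at −0.13 (adjusted p = 0.64). Same-numbered libraries did not deviate together (r from −0.13 to 0.03, against −0.11 to 0.13 for libraries of different numbers). Such values cannot show whether same-numbered libraries came from paired cultures. With the replicate number as a block, the median difference was 0.05, calls over all genes went from 8 to 11 and those over all guides were 7 in both fits, with 0 members called. The single day 0 library and the few reads of some guides limit the precision, and the cause of these shifts was not tested.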
